A study of Mus musculus with 75 samples.

Results

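The genes described here are 10 genes that mark profibrotic, lipid-associated macrophages, namely Spp1, Gpnmb, Trem2, Cd9, Cd63, Fabp5, Apoe, Lgals3, Lpl and Ms4a7. They were selected by symbol among the 55536 genes of the count table, and all 10 passed the filter on low counts that left 16221 genes for testing. RNA was sequenced from 1 lung lobe (right, inferior) of 75 male C57BL/6JRj mice, 1 library per mouse, from a longitudinal study of lung fibrosis after a single intratracheal dose of bleomycin (BLEO-IPF). Mice received bleomycin at an age of 12 to 14 weeks and were terminated on day 7, 14 or 21 (groups of 10, 12 and 12 mice) or on day 28, 35 or 42 (groups of 12, 12 and 7 mice), and 10 control mice (CTRL) carried the label saline, although the treatment notes call the controls untreated. The BLEO-IPF groups held only mice that had lost 5 to 17% of body weight by day 6. The study's methods state that lungs were lavaged before they were excised, and the amount of cells that this took from the airways was not given. Each library is a separate mouse.

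In obese fat, atherosclerotic plaques and fibrotic organs, macrophages that take up lipid and cell debris switch on a shared set of genes, many of which depend on the receptor TREM2 and its signaling adapter TYROBP. In fibrotic lung, cells of this kind derive largely from recruited monocytes, lie close to fibroblasts and are recognized by high SPP1 and GPNMB. The products fall into secreted ligands (osteopontin, encoded by Spp1, and galectin-3, encoded by Lgals3), surface and endolysosomal membrane proteins (TREM2, GPNMB, MS4A7, CD9 and CD63) and proteins that carry or hydrolyze lipid (ApoE, lipoprotein lipase and FABP5). Several of them are also made outside macrophages, for example Apoe and Lpl in other lung cells, Cd9 in epithelium and platelets, and Lpl in heart and fat. In RNA from whole lobes, more cells of a type and more RNA per cell cannot be told apart.

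Because several of these genes rose together, the sequence just before their transcription start is shown for the 4 genes with the largest changes, taken from RefSeq on GRCm38. Capitals mark matches on either strand to 4 short motifs, CACGTG (E-box of MITF and TFE factors), TGANTCA (AP-1), GAGGAA (core of PU.1 sites, TTCCTC on the other strand) and TGACCT (half-site of nuclear receptors). Each stretch ends at the base before the start, except for Gpnmb, where only the surroundings of the AP-1 match, just after the RefSeq start, are given.
Spp1, chr5:104434991-104435110, plus strand: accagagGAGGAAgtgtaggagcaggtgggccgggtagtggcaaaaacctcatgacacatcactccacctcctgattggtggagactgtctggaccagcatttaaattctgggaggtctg
Trem2, chr17:48346301-48346400, plus strand: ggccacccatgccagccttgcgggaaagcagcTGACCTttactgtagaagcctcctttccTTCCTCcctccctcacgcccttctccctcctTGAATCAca
Ms4a7, chr19:11334696-11334795, minus strand: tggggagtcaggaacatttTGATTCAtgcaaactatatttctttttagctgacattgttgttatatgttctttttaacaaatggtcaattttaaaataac
Gpnmb, chr6:49036514-49036542, plus strand: gccaggggcaagTGACTCAtgagcacgag

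Windows from 250 bases before to 50 bases after a start were given for 8 of the 10 genes, in 12 windows, and not for Fabp5 and Lpl. TGANTCA occurred in the windows of 3 of the 8 genes (Gpnmb, Trem2 and Ms4a7), beside 8.97% of all genes with a window. GAGGAA occurred in 5 of the 8 (Spp1, Trem2, Cd63, Apoe and Ms4a7), beside 31.3% of all genes. TGACCT occurred in 1 (Trem2), beside 18.1%, and CACGTG in none, beside 8.09%. The stretch of Trem2 held 3 of the 4 motifs. The Ms4a7 stretch precedes a second RefSeq start that lies inside the gene. A match describes the letters only and is not evidence that a factor binds there.

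Library totals ranged from 9240291 to 14665247 counts, and the lowest count of any of the 10 genes in any mouse was 21 (Trem2 in CTRL). As a check of the tissue, Sftpc, the surfactant gene of AT2 cells, had a median of 13751 CPM (counts scaled to a common library total) in CTRL mice. Replicate 10 of day 28 stood apart in the content of other tissue, with a summed level of 1924 CPM over 4 cardiac muscle markers and 394 CPM over the adipocyte markers, whereas the next highest mice of that day had 630 and 7.57 CPM. That mouse was also the lowest of day 28 for 6 of the 10 genes, and values of the 10 genes without it are given where they bear on a result. Replicate 8 of day 7 likewise had 113 CPM over the adipocyte markers, against 4.04 in the next mouse.

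Against CTRL, 7 of the 10 genes were upregulated on every day (Spp1, Gpnmb, Trem2, Ms4a7, Lgals3, Cd63 and Lpl), Apoe was upregulated from day 14 and onwards, and Cd9 and Fabp5 showed small increases on some days only. By edgeR's quasi-likelihood test with Benjamini-Hochberg adjustment over all genes, 7 of 10 were called higher on day 7 (24.8% of all genes), 8 on day 14 (32.4% of all genes), and all 10 on day 21 (28.3% of all genes). The later counts were 8 for day 28 (24.1% of all genes), 9 for day 35 (16.9%) and 10 for day 42 (13.7%). None was called lower on any day, whereas 21.0%, 29.9%, 25.8%, 19.2%, 13.1% and 11.0% of all genes were. The share of all genes that were higher on all 6 days was 8.33%. The median log2 fold change (log2FC) of the 10 genes was 1.11, 1.99, 1.52, 1.5, 1.16 and 1.23 in the order of the 6 days, and that of all genes lay between 0 and 0.02. With a log2FC of at least 1 required, the count on day 42 was 6 rather than 10, beside 3.09% of all genes.

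**Figure D1:**
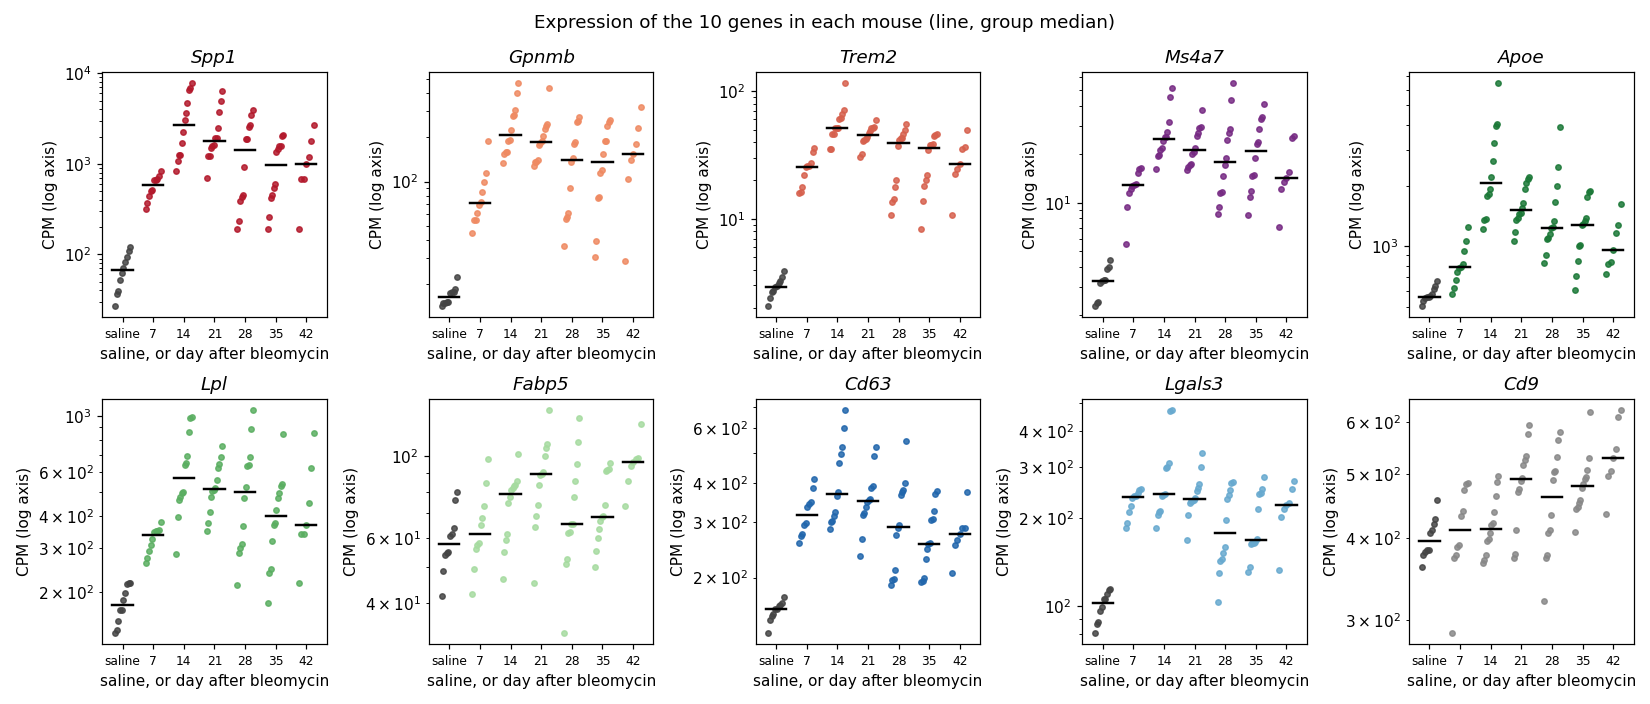
CPM of each of the 10 genes in every mouse, on log axes, with 1 point per mouse and a line at the group median. CTRL mice are the leftmost, dark grey points of each panel. Spp1, Gpnmb, Trem2, Ms4a7 and Cd63 show no overlap between the 10 CTRL mice and any of the 65 BLEO-IPF mice.

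All 65 BLEO-IPF mice exceeded all 10 CTRL mice for 5 of the genes, namely Spp1, Gpnmb, Trem2, Ms4a7 and Cd63, a separation seen in 0.838% of all genes. Counted by day, groups did not overlap for 7 genes on day 7 (7.39% of all genes), and for 8 on both day 14 (9.46% of all genes) and day 21 (6.84%). Later they did not overlap for 6 genes at day 28 (2.10% of all genes), 6 at day 35 (2.43%) and 7 at day 42 (4.22%). Cd9 and Fabp5 overlapped with CTRL on every day.

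Spp1 (ENSMUSG00000029304, GRCm38 chr5:104435118-104441050) encodes osteopontin, a secreted ligand of CD44 and integrins. CTRL mice had 27 to 122 CPM (median 66.8), BLEO-IPF mice 320 to 827 (median 585) on day 7, 826 to 7806 (median 2669) on day 14 and 691 to 6408 (median 1770) on day 21. The later ranges were 192 to 3980 CPM (median 1404) on day 28, 191 to 2107 (median 970) on day 35 and 188 to 2659 (median 1008) on day 42. No BLEO-IPF mouse fell into the CTRL range, but mice of the same day differed widely after day 7. The highest mouse exceeded the lowest 2.58-fold on day 7, 9.45-fold on day 14 and 20.8-fold on day 28. Against CTRL the log2FC was 3.04 ± 0.49 (SE) on day 7 and 5.62 ± 0.55 on day 14, a 49.2-fold difference of fitted means (adjusted p = 7.36e-14). It was 5.13 ± 0.53, 4.52 ± 0.52 and 3.92 ± 0.50 on days 21, 28 and 35.

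Lgals3 (ENSMUSG00000050335, chr14:47367751-47386160) encodes galectin-3, a lectin that macrophages and epithelium secrete. It ranged from 80.4 to 115 CPM in CTRL (median 102), 185 to 252 on day 7 (median 236), 186 to 471 on day 14 (median 242) and 132 to 270 on day 42 (median 222). Only 1 mouse, on day 28, lay within the CTRL range. The log2FC was 1.19 ± 0.15 on day 7 and 1.5 ± 0.15 on day 14, and the direct test between these days (0.31 ± 0.14) missed the threshold (adjusted p = 0.119). On days 21 to 35 the log2FC was 1.29 ± 0.15, 0.93 ± 0.15 and 0.96 ± 0.15, and on day 42 it was 1.12 ± 0.16 (adjusted p = 2.50e-07).

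Trem2 (ENSMUSG00000023992, chr17:48346401-48354147) encodes a lipid-sensing receptor of macrophages. Its level was 2.08 to 3.90 CPM in CTRL (median 2.94), 15.8 to 35.6 on day 7 (median 25.7), 35.4 to 116 on day 14 (median 51.5) and 30.4 to 60 on day 21 (median 45.2). On days 28, 35 and 42 it spread from 10.6 to 54.9 CPM (median 39.3), 8.36 to 46.3 (median 36) and 10.7 to 49.4 (median 26.9). The lowest BLEO-IPF mouse of any day was thus above the highest CTRL mouse. Trem2 had the smallest p-value of the 10 genes on every day, with a log2FC of 3.06 ± 0.29 on day 7 (adjusted p = 1.18e-13), 4.28 ± 0.29 on day 14 (adjusted p = 2.20e-20) and 3.31 ± 0.30 on day 42 (adjusted p = 2.04e-13).

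Gpnmb (ENSMUSG00000029816, chr6:49036546-49070929) encodes a lysosomal and cell-surface glycoprotein that MITF-family factors are known to induce. It read 14.3 to 22.3 CPM in CTRL (median 16.3), 44.6 to 190 on day 7 (median 71), 135 to 468 on day 14 (median 207) and 129 to 433 on day 21 (median 186). Later ranges were 36.2 to 274 CPM on day 28 (median 141), 30.7 to 263 on day 35 (median 137) and 29 to 324 on day 42 (median 154). All were above the CTRL range, although the lowest mice of days 28 to 42 came close to it. The log2FC was 2.33 ± 0.35 on day 7, 3.87 ± 0.36 on day 14 (adjusted p = 1.37e-14) and 3.30 ± 0.37 on day 42 (adjusted p = 2.79e-10).

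Ms4a7 (ENSMUSG00000024672, chr19:11321039-11336146) encodes a tetraspan membrane protein found in monocyte-derived and interstitial macrophages. It had 2.29 to 4.45 CPM in CTRL (median 3.29), 5.54 to 16.6 on day 7 (median 12.8), 16.2 to 51.8 on day 14 (median 24.9) and 7.12 to 26.1 on day 42 (median 14.2). The groups did not overlap. The log2FC was 1.95 ± 0.29 on day 7 and 3.09 ± 0.29 on day 14, stayed between 2.76 and 2.84 from day 21 to day 35, and was 2.33 ± 0.31 on day 42 (adjusted p = 3.15e-08).

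The tetraspanins differed from each other. Cd63 (ENSMUSG00000025351, chr10:128900989-128912822), a component of late endosomes and exosomes, ranged from 133 to 174 CPM in CTRL (median 159), 257 to 413 on day 7 (median 317), 285 to 682 on day 14 (median 369) and 206 to 376 on day 42 (median 275). Its log2FC was 1.04 ± 0.15, 1.42 ± 0.15 and 0.83 ± 0.17 on those days, without overlap. Cd9 (ENSMUSG00000030342, chr6:125460266-125494791), a surface tetraspanin, ranged from 361 to 456 CPM in CTRL (median 395), 366 to 496 on day 14 (median 412) and 434 to 625 on day 42 (median 528). On day 14 only 3 of 12 mice exceeded all CTRL mice, and on day 42 6 of 7 did. Its log2FC was 0.04 ± 0.09 on day 7 (adjusted p = 0.718) and 0.07 ± 0.08 on day 14 (adjusted p = 0.491), and it was called higher on days 21 (0.28 ± 0.08), 35 (0.27 ± 0.08) and 42 (0.42 ± 0.09, adjusted p = 6.26e-04). On day 28 it was 0.19 ± 0.08 (adjusted p = 0.0528), and without replicate 10 of that day it was called (0.22, adjusted p = 0.0303). It was also called when 1 of 9 other mice was left out, namely replicates 4, 5, 7, 8 and 11 of day 28, replicate 8 of CTRL, replicate 3 of day 7, replicate 4 of day 14 and replicate 9 of day 35.

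Apoe (ENSMUSG00000002985, chr7:19696109-19699188) encodes the apolipoprotein that macrophages use to export cholesterol. CTRL mice had 506 to 673 CPM (median 563), and BLEO-IPF mice 580 to 1245 (median 786) on day 7, 1220 to 6463 (median 2065) on day 14 and 1059 to 2195 (median 1513) on day 21. Levels were 825 to 3889 CPM (median 1238) on day 28, 606 to 1887 (median 1282) on day 35 and 730 to 1617 (median 953) on day 42. On day 7, 8 of 10 mice were above all CTRL mice, yet the log2FC of 0.52 ± 0.23 missed the threshold (adjusted p = 0.0541). It reached 2.21 ± 0.23 on day 14 (adjusted p = 9.12e-13), and was 1.48 ± 0.22, 1.44 ± 0.22, 1.11 ± 0.22 and 0.87 ± 0.25 on days 21, 28, 35 and 42. With only the groups compared in the fit, the day 7 increase was called (0.51, adjusted p = 3.33e-04), as it was with all groups when 1 of 7 mice was left out (replicates 5, 6 and 9 of day 7, 3 and 11 of day 14, 5 of day 28 and 4 of day 35, lowest adjusted p = 0.0368).

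Lpl (ENSMUSG00000015568, chr8:68880491-68907448) encodes lipoprotein lipase, which releases fatty acids from triglycerides. It had 137 to 218 CPM in CTRL (median 178), 260 to 379 on day 7 (median 337), 282 to 986 on day 14 (median 568) and 349 to 758 on day 21 (median 512). From day 28 the ranges widened to 214 to 1052 CPM (median 497), 182 to 843 on day 35 (median 399) and 217 to 853 on day 42 (median 371), and 1 mouse of each of these days fell into the CTRL range. The log2FC was 0.84 ± 0.22 on day 7 (adjusted p = 0.00140), 1.77 ± 0.22 on day 14, 1.55 ± 0.22 on day 28 and 1.33 ± 0.24 on day 42 (adjusted p = 2.46e-05). Lpl is also a gene of heart and fat. The mouse of day 28 with the most heart and fat RNA had 884 CPM, the second highest of that day, and without it the log2FC was 1.46 ± 0.22. The mouse of day 7 with the most fat RNA had the highest Lpl of that day, 379 CPM, and without it the log2FC was 0.79 ± 0.23 (adjusted p = 0.00342). With the cardiac muscle and adipocyte markers as terms in the fit, an alternative chosen after seeing the data, it was 0.84, 1.84, 1.6 and 1.40 for days 7, 14, 28 and 42.

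Fabp5 (ENSMUSG00000027533, chr3:10012548-10016607), a cytosolic fatty acid carrier, was the least regular. CTRL mice had 41.7 to 79.7 CPM (median 57.9), mice of day 14 46.3 to 101 (median 78.9), of day 21 45.2 to 133 (median 89.2), of day 28 33.1 to 126 (median 65.3) and of day 42 73.1 to 122 (median 96.1). The ranges overlapped on each day, and 8 of 12 mice on day 21 and 6 of 7 on day 42 exceeded all CTRL mice. It was called higher on day 21 (log2FC 0.55 ± 0.15, adjusted p = 0.00170) and day 42 (0.68 ± 0.17, adjusted p = 0.00256), while on days 7, 14, 28 and 35 the log2FC was 0.13 ± 0.16, 0.31 ± 0.15, 0.31 ± 0.15 and 0.29 ± 0.15 (adjusted p between 0.0690 and 0.523). On days 14 and 35 the call was made when only the groups compared were fitted (adjusted p = 0.0305 and 0.0423). With all groups, the increase on day 14 was called without replicate 1 or 2 of CTRL or replicate 1 or 8 of day 14 (lowest adjusted p = 0.0371), and that on day 28 without its replicate 5 (adjusted p = 0.0346).

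**Figure D2:**
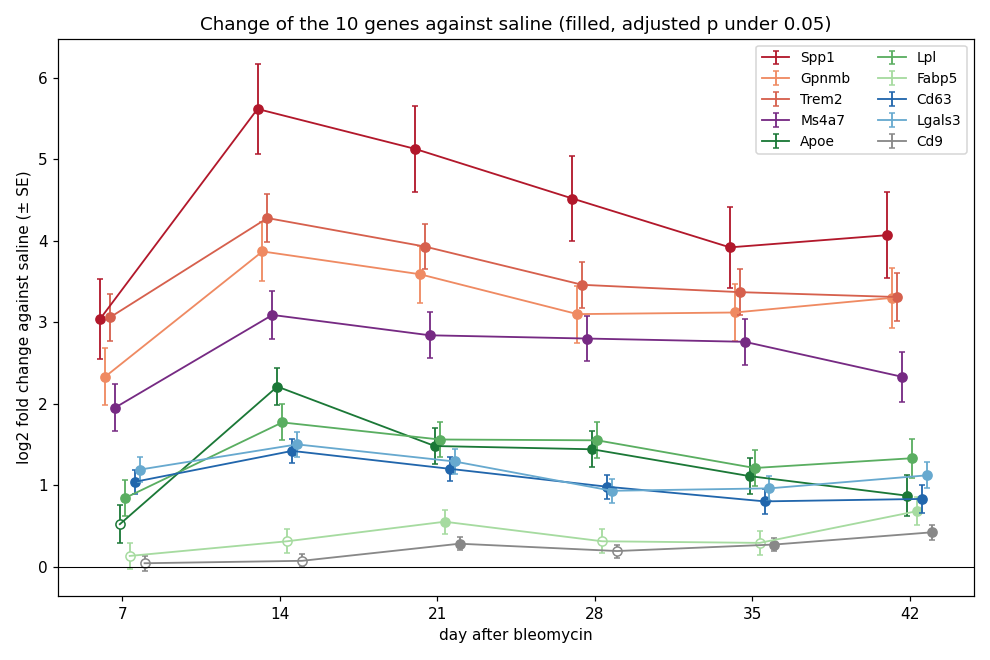
Fitted log2FC against CTRL (y axis) by day after bleomycin (x axis), with SE bars, for the 10 genes. Filled points passed an adjusted p of 0.05. Spp1, Gpnmb, Trem2 and Ms4a7 stay above 1.9 on each day, while Cd9 and Fabp5 stay below 0.7.

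The time course was compared directly between days in the same fit. From day 7 to day 14, 6 of 10 genes rose (9.48% of all genes) and none fell (7.55%), namely Spp1 by a log2FC of 2.58 ± 0.47, Apoe by 1.69 ± 0.23, Gpnmb by 1.54 ± 0.31, Trem2 by 1.23 ± 0.23, Ms4a7 by 1.13 ± 0.25 and Lpl by 0.93 ± 0.21. Their adjusted p-values lay between 3.60e-07 (Apoe) and 0.00149 (Lpl). Cd63 (0.38 ± 0.15, adjusted p = 0.0618), Lgals3, Fabp5 and Cd9 did not pass, although Cd63 was called when replicate 5 of day 7 or of day 28, or replicate 5, 6, 9, 10 or 11 of day 14, was left out (lowest adjusted p = 0.0365). None of the 10 genes was called by edgeR between consecutive later days. Of all genes, 0.450% were higher and 0.579% lower on day 21 than on day 14, 0.413% and 0.314% on day 28 than on day 21, 0.808% and 0.462% on day 35 than on day 28, and 0% each on day 42 than on day 35. The nearest was Apoe from day 14 to 21 (log2FC -0.72 ± 0.21, adjusted p = 0.0613), which was called lower in 9 of the 75 refits that left out 1 mouse (replicates 5, 6, 9, 10, 11 and 12 of day 14, 5 and 10 of day 21 and 5 of day 28, lowest adjusted p = 0.0218). DESeq2 also called 0 of the 10 genes in each of these 4 steps. At an unadjusted p under 0.05 in edgeR there were 2 of the 10 from day 14 to 21 (Apoe and Cd9, 17.1% of all genes), 2 from day 21 to 28 (Lgals3 and Trem2, 12.1%), 0 from day 28 to 35 (12.7%) and 1 from day 35 to 42 (Fabp5, 5.90%), which is near the share of all genes.

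From day 14 to day 42, 5 of 10 genes fell (18.8% of all genes) and 1 rose (15.2%). The log2FC was -1.55 ± 0.51 for Spp1 (adjusted p = 0.0146), -1.34 ± 0.25 for Apoe, -0.97 ± 0.26 for Trem2, -0.76 ± 0.28 for Ms4a7 (adjusted p = 0.0267) and -0.59 ± 0.16 for Cd63. Cd9 rose by 0.35 ± 0.09 (adjusted p = 0.00186), and with a log2FC of at least 1 required no gene was called higher (1.54% of all genes). Gpnmb (-0.56 ± 0.34, adjusted p = 0.198), Lpl (-0.44 ± 0.24, adjusted p = 0.142), Lgals3 (-0.38 ± 0.16, adjusted p = 0.0570) and Fabp5 (0.37 ± 0.17, adjusted p = 0.0797) did not pass. As a share of the log2FC on day 14, the log2FC on day 42 was 39.3% for Apoe, 58.5% for Cd63, 72.5% for Spp1, 77.3% for Trem2 and 85.4% for Gpnmb. The call of Ms4a7 was lost when any of 5 mice was left out (replicates 1, 2 and 4 of day 42 and replicates 2 and 3 of day 14), with an adjusted p of up to 0.0842, and Lpl was called lower without replicate 7 of day 42 (adjusted p = 0.0292). Lgals3 was called lower when any of 8 mice was left out (replicates 5, 6, 10, 11 and 12 of day 14, 6 and 7 of day 42 and 10 of day 28, lowest adjusted p = 0.0326), and Fabp5 higher without replicate 9 of day 14 (adjusted p = 0.0488).

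Levels of different genes can be compared only per length, here as RPKM, the CPM divided by the length in kilobases of the union of annotated exons. That union merges all annotated isoforms, with 1648 bases for Spp1, 2138 for Apoe, 3567 for Fabp5 and 4946 for Trem2. Transcripts present in lung may be shorter to unlike degrees, so the order below holds for these lengths only. In CTRL lungs the order of median RPKM was Apoe (263), Cd9 (193), Lgals3 (54.8), Cd63 (43.1), Spp1 (40.5), Lpl (17.0), Fabp5 (16.2), Gpnmb (2.50), Ms4a7 (0.739) and Trem2 (0.595). Neighbors whose ranges over mice overlapped were Lgals3 and Cd63, Cd63 and Spp1, Spp1 and Lpl, Lpl and Fabp5, and Ms4a7 and Trem2. On day 14 Spp1 led (median 1620 RPKM, range 501 to 4737), followed by Apoe (966, range 570 to 3023), whose ranges overlapped, and Cd9 (202), which did not overlap with Apoe. Among the 16221 genes, Spp1 moved from place 1046 by median RPKM in CTRL to place 8 on day 14, Apoe from 88 to 17, and Trem2 from 13980 to 4918. The lowest levels on day 14 were those of Trem2 (10.4 RPKM) and Ms4a7 (5.6 RPKM). By this measure, Spp1, Gpnmb, Trem2 and Ms4a7, the genes with large fold changes, spanned the range from the scarcest to the most abundant of the 10 on day 14. In CTRL, Spp1 stood in place 5 of the 10, and Gpnmb, Ms4a7 and Trem2 in places 8, 9 and 10.

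**Figure D3:**
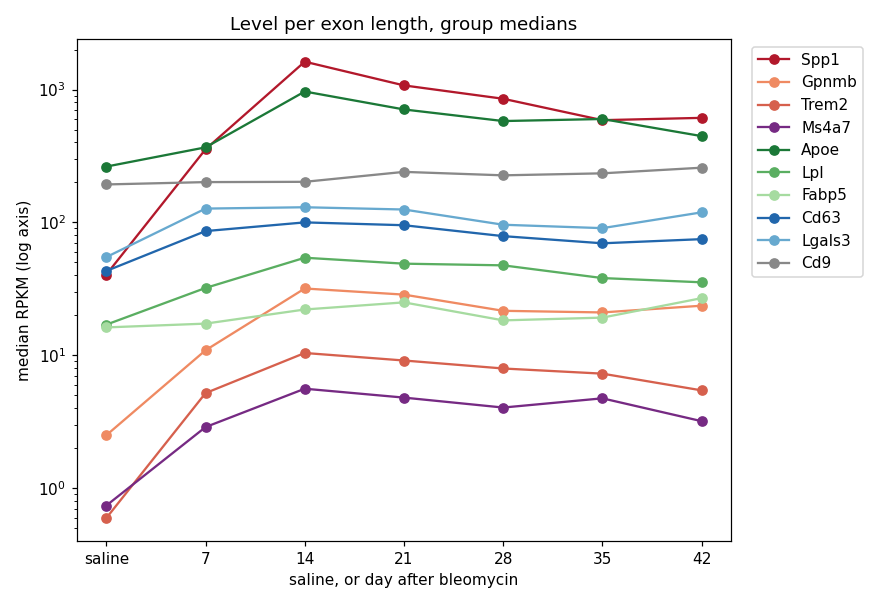
Median RPKM per group (log axis) for CTRL and each day after bleomycin (x axis). Spp1 crosses from 40.5 RPKM in CTRL to 1620 on day 14, above all other genes shown, while Trem2 and Ms4a7 rise from below 1 to 10.4 and 5.6.

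Mice of the same late day differed in several of the genes at once. On day 28, 5 of 12 mice lay below the lowest mouse of day 14 for each of Spp1, Gpnmb, Trem2, Ms4a7, Cd63 and Apoe, and on day 35 6 of 12 mice did for Spp1, Gpnmb and Trem2. Replicate 4 of day 42 was the lowest of its 7 mice for 9 of the 10 genes, all but Fabp5, and replicate 7 was the highest for all 10. On day 35, replicate 4 was the lowest of 12 for 8 genes and replicate 9 the highest for 5. The summed level of the 7 general macrophage markers was 344 CPM in the low and 598 CPM in the high mouse of day 42, the lowest and the highest of that day, and 351 and 534 CPM in those of day 35.

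Variation between mice was shared by 8 of the genes from day 14 onwards, and such sharing was not seen in CTRL. Cd9 and Fabp5 varied in the same direction as all 8 of them only on days 35 and 42. After the mean of each group was subtracted, Pearson's r of log2 CPM over the 45 pairs had a median of 0.60 and ranged from -0.15 to 0.87. Among the 8 genes without Cd9 and Fabp5 (28 pairs, a grouping made after the values were seen) it ranged from 0.52 to 0.87 with a median of 0.73. Within single groups, the median r of these 28 pairs was -0.02 in the 10 CTRL mice (range -0.67 to 0.78, with 15 pairs below 0) and 0.38 on day 7 (range -0.70 to 0.83, with 8 pairs below 0). CTRL mice left little spread to be shared for several of these genes. Trem2 had 21 to 42 counts and Ms4a7 24 to 48. The SD was 7.23% of the mean for Cd63 and 8.50% for Apoe, but 45.7% for Spp1. Whether counting noise lowered r in CTRL was not tested. From day 14 no pair was below 0, and the median r was 0.78, 0.59, 0.74, 0.90 and 0.89 on days 14, 21, 28, 35 and 42. The highest pair over all mice was Trem2 and Gpnmb (0.87), followed by Trem2 and Spp1 (0.83). Pairs with Cd9 had a median r of 0.30 and pairs with Fabp5 one of 0.14 over all mice, but this differed by day. Pairs with Cd9 had r of -0.51 to 0.11 on day 14, 0.48 to 0.82 on day 35 and 0.50 to 0.96 on day 42. Pairs with Fabp5 had r of -0.66 to 0.05, 0.53 to 0.96 and 0.19 to 0.59 on those days. Earlier groups were mixed. In CTRL, Fabp5 had r of 0.79 with Apoe but -0.75 with Ms4a7. Cd9 had r of 0.77 with Lgals3 in CTRL but -0.74 with Spp1 on day 7. All genes of a mouse were read from the same library and thus share its depth and the composition of its lobe, and r is given as a description only.

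**Figure D4:**
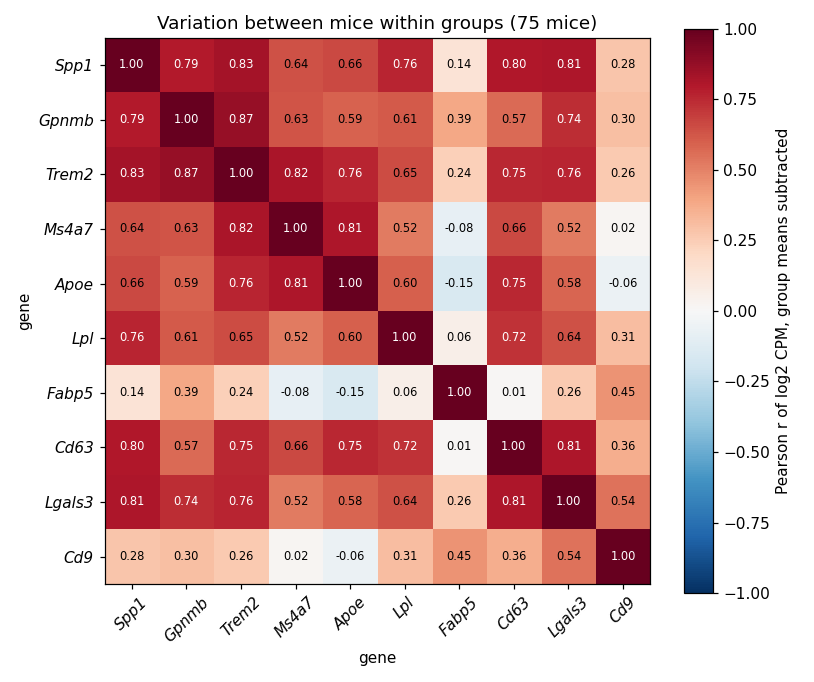
Pearson's r between the genes over 75 mice (color and number), on log2 CPM after subtraction of the group means. The 8 genes from Spp1 to Lgals3 other than Fabp5 have r of 0.52 or more with each other, whereas Fabp5 and Cd9 have a median r of 0.14 and 0.30 with the other genes. The pooled values hide that the 28 pairs of those 8 genes have a median r of -0.02 within CTRL. They also hide that pairs with Cd9 have r of 0.50 to 0.96 on day 42.

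Genes outside the 10 whose variation between mice was most like their mean, by the same measure, were Ctsb (r = 0.96) and Ctss (0.94), which encode lysosomal cathepsins, Cd68 (0.93), a lysosomal membrane protein of macrophages, Tyrobp (0.93), the adapter of TREM2, Fcgr3 (0.92), an Fc receptor, Wfdc17 (0.91), and Gusb (0.91) and Ctsa (0.91), which encode lysosomal hydrolases. For single genes the most similar ones were Ms4a6d for Spp1 (0.91), Cd68 for Gpnmb (0.90), Ctss for Trem2 (0.94), Adgre1 for Ms4a7 (0.88), C1qa for Apoe (0.90), Lgmn for Cd63 (0.92), Anxa1 for Lgals3 (0.88), Msr1 for Lpl (0.82), Lamp1 for Cd9 (0.79) and Vnn1 for Fabp5 (0.76). Against CTRL on day 14, the log2FC of these genes ranged from 0.25 (Lamp1) to 4.36 (Msr1), with Wfdc17 at 4.16 and Tyrobp at 1.63.

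Most general macrophage markers were higher after bleomycin, as were most of the 10 genes. Of the 7 in the list (Adgre1, Cd68, Csf1r, Mertk, Fcgr1, Itgam and Cd14), 5 were called higher and 1 lower on day 7, 6 higher on days 14, 21 and 28, 5 on day 35 and 4 on day 42, with no lower call after day 7. For this and the next lists, the shares of all genes on the 6 days were 24.8%, 32.4%, 28.3%, 24.1%, 16.9% and 13.7% higher. The shares lower were 21.0%, 29.9%, 25.8%, 19.2%, 13.1% and 11.0%. Their summed level was 313 to 350 CPM in CTRL, 361 to 624 on day 7, 509 to 910 on day 14 and 344 to 598 on day 42. Adgre1, which encodes the F4/80 antigen, had a median of 26.6 CPM in CTRL, 99.0 on day 14 and 52.9 on day 42. Of 7 markers of interstitial macrophages 6 were called higher on day 14, and C1qa rose from a median of 30.6 to 233 CPM, with 72.7 CPM on day 42. By day 42, 4 of these 7 markers were called higher and 1 lower, the latter being Lyve1 (log2FC -1.14 ± 0.29, adjusted p = 0.00224), named after its value was seen. Markers of resident alveolar macrophages were split, with 5 of 12 called higher and 5 lower on day 14, and Siglecf had a median of 9.44 CPM in CTRL and 7.78 on day 14.

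When the mean log2 CPM of the 7 general macrophage markers was a term in the fit, Trem2 was the gene called higher on every day, with a log2FC of 1.48 ± 0.17 on day 7, 1.74 ± 0.21 on day 14 (adjusted p = 5.54e-09) and 1.92 ± 0.17 on day 42 (adjusted p = 2.30e-13). Ms4a7 and Gpnmb were called from day 21 and Spp1 from day 28 onwards. On day 42 the log2FC with the term was 1.53 ± 0.27 for Gpnmb, 1.16 ± 0.28 for Spp1, 1.01 ± 0.22 for Ms4a7, 0.41 ± 0.12 for Lgals3 and 0.35 ± 0.11 for Cd9, which makes 6 of 10 genes called higher (5.76% of all genes). The count was 2 for day 7 (8.87% of all genes), 1 for day 14 (2.18%), 3 for day 21 (5.06%), and 4 for each of day 28 (4.78%) and day 35 (5.12%). None was lower from day 14 onwards, beside 0.789%, 2.88%, 2.29%, 3.66% and 4.72% of all genes. Between days 7 and 14 Apoe was the 1 gene higher with the term (0.77 ± 0.15, 1.37% of all genes), and none was lower (1.39%). On day 14 the log2FC of Apoe, Lpl and Cd63 with the term was -0.01 for each, and that of Spp1 was 0.38 ± 0.36. On day 7 Apoe was called lower with the term (-0.78 ± 0.17, adjusted p = 8.14e-04, 5.45% of all genes). From day 14 to day 42 no gene was called lower with the term (3.71% of all genes), and Gpnmb (0.75, adjusted p = 0.0386) and Cd9 (0.41, adjusted p = 0.00765) were called higher (2.33%). Most of the markers themselves rose after bleomycin, so the term also takes up change that is common to the markers and the 10 genes. The number of macrophages and the level per macrophage cannot be told apart by it. The summed level of the 7 markers in CTRL (313 to 350 CPM) did not overlap with that on day 7 (361 to 624), day 14 (509 to 910) or day 21 (454 to 757). Nor did it overlap with that on day 28 (361 to 701) or day 35 (351 to 599), whereas the range of day 42 (344 to 598) reached into that of CTRL. To the extent that the term is separated likewise, values with it on days 7 to 35 are extrapolated, not read at a shared level.

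**Figure D5:**
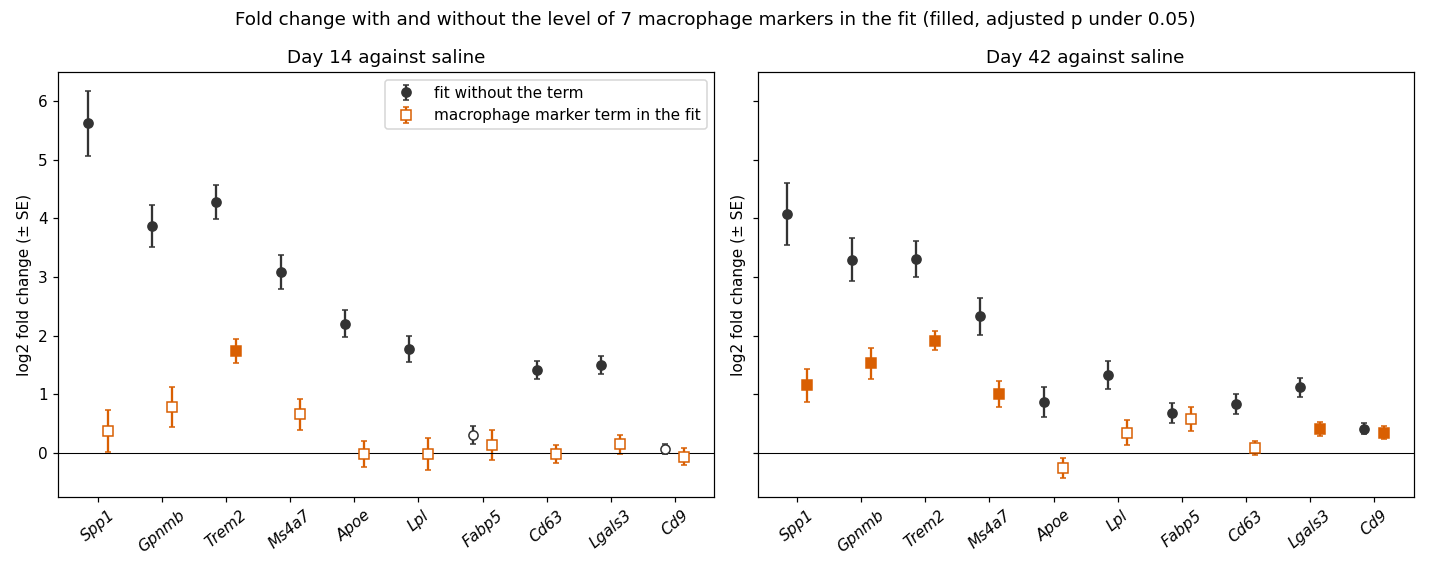
Log2FC against CTRL with SE bars (y axis) on day 14 and day 42 for each gene (x axis), from the fit without (black circles) and with (orange squares) the mean level of 7 macrophage markers as a term. Filled symbols passed an adjusted p of 0.05. With the term, Trem2 is at 1.74 on day 14, and on day 42 Trem2, Gpnmb, Spp1, Ms4a7, Lgals3 and Cd9 are filled.

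Markers of other cells that can express some of the 10 genes were examined in the same way. All 5 osteoclast markers were called higher on day 14, and Acp5, which encodes tartrate-resistant acid phosphatase and is found in macrophages as well, had a median of 15.4 CPM in CTRL, 66 on day 14 and 50.9 on day 42. Of 5 AT2 markers 4 were called lower on day 14 and none on day 42, and 3 of 4 platelet markers were lower on day 14, with Pf4 at a median of 9.02 CPM in CTRL and 10.8 on day 14. Of 5 fibroblast markers 4 were higher and 1 lower on day 14, as were 2 and 2 of 5 dendritic cell markers and 1 and 2 of 3 smooth muscle markers. On the same day 3 of 4 monocyte and 2 of 4 neutrophil markers were higher and none lower, 2 of 4 AT1 and 2 of 3 endothelial markers and all 3 red blood cell markers were lower and none higher, and the 1 tested marker each of skeletal muscle and mast cells was not called. Ly6c2 of monocytes had a median of 7.99 CPM in CTRL and 9.56 on day 14. Cardiac muscle markers were called higher for 4 of 4 genes on day 28, when their summed level ranged from 7.62 to 1924 CPM, and the defining marker Myh6 was at 0 counts in some mice of CTRL and of days 7, 14 and 42. The 1 tested skeletal muscle marker was also higher on day 28. Of 3 tested adipocyte markers 1 was lower on day 14, 3 were lower on day 21 and 2 were higher on day 28, and none was called on the other days. Replicate 10 of day 28 had the highest cardiac muscle (1924 CPM, next mouse 630) and adipocyte levels (394 CPM, next mouse 7.57) of that day. The summed level of skeletal muscle markers reached 838 CPM on day 28, with a median of 2.02. Whether the day 28 calls of these markers hold without replicate 10 was not tested. Adipoq, the defining adipocyte marker, was at 0 in some mice of every day after bleomycin. What these cells contributed to the levels of the 10 genes was not tested.

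Genes that act beside the 10 in receptor signaling, lipid handling and the control of this state formed a list of 37, all tested. In the order of the 6 days, 17, 25, 26, 25, 21 and 19 were called higher, and 3, 4, 2, 1, 2 and 0 lower. Of all genes, 24.8%, 32.4%, 28.3%, 24.1%, 16.9% and 13.7% were higher, and 21.0%, 29.9%, 25.8%, 19.2%, 13.1% and 11.0% lower. The median log2FC of the list was 0.25 on day 7, 0.61 on day 14 and 0.31 on day 42, where that of all genes lay between 0 and 0.01. The highest called on day 14 were Msr1 (4.36 ± 0.38), a scavenger receptor for modified lipoproteins, Igf1 (2.77 ± 0.28), a growth factor, and Mmp14 (2.59 ± 0.26), a membrane-bound collagenase. The lowest were Csf2 (-0.86 ± 0.21), which encodes GM-CSF, Bhlhe41 (-0.83 ± 0.15), a transcription factor of alveolar macrophages, and Cd36 (-0.50 ± 0.10), a fatty acid and lipoprotein receptor also made by endothelium. Only 2 genes were called in opposite directions on different days. Csf1, the growth factor of macrophages, was higher on day 7 (0.28 ± 0.10) and day 14 (0.37 ± 0.10) and lower on day 35 (-0.28 ± 0.10), and Pdgfb was lower on day 7 (-0.26 ± 0.10) and higher on day 21 (0.24 ± 0.09) and day 42 (0.31 ± 0.10).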

How the data were processed

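RNA of the inferior lobe of 75 mice was sequenced, 1 library per mouse. The authors prepared directional libraries, aligned single-end reads with STAR 2.7.0f to GRCm38 with the annotation of Ensembl 96 and deposited raw counts per gene. Which program counted the reads, and how it handled strand and multiply mapped reads, was not given in the sources used here. Gm42793 shares 309 exon bases with Spp1 and had 0.101% of its counts, and the pseudogene Cd63-ps had 0.725% of the counts of Cd63. Each of the 75 columns was matched to a mouse by its library number, and groups were those of the labels. Total counts per library limit the precision, and p-values weigh a difference of group means against the spread between mice.

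From the counts, edgeR 4.0.16 in R 4.3.3 was run with TMM factors, filterByExpr and 1 quasi-likelihood fit of all mice with 1 mean per group. Benjamini-Hochberg adjustment ran over 16221 genes, with a threshold of 0.05. CPM used the TMM library sizes, and log2 CPM a prior count of 2. RPKM divided CPM by the union of exons of a gene. The log2FC and its SE come from this fit. In all 375 within-group pairs of libraries, counts differed by more than sampling noise (chi-square of at least 3.97 per degree of freedom). Alternatives were DESeq2 1.42.0, library size and upper quartile scaling, no filter, a minimum of 10 counts in every mouse, only the groups compared, a replicate block, a macrophage marker term, a minimum log2FC of 1 and leaving out each mouse, and, added after seeing the data, cardiac muscle and adipocyte terms. The fits without 1 mouse recomputed the TMM factors but kept the negative binomial dispersions estimated from all mice. Python 3.11.15 with pandas 2.3.3, numpy 2.4.6 and matplotlib 3.10.9 was used for summaries.

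The 10 genes, the list of 37 genes, the 19 marker lists and the motifs were chosen with earlier results of these data known. Named were the 10 genes, the 8 genes most like their mean and the 1 most like each of them, the 3 highest and 3 lowest called genes of the list of 37 on day 14 with those called in opposite directions, and the first marker of a list. The result of 1 marker list is not reported here.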

Additional observations from a re-analysis of the deposited data

Results flagged for a closer look

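In the groups of 7 and 10 mice, 30 pairs of gene and group were checked for a mouse far from the others (Dixon's 95% limits), of which chance flags about 1 in 20 groups. This applied to Gpnmb on day 7, where replicate 4 had 190 CPM and the next mouse 114. That mouse was also the highest of day 7 for Spp1, Trem2 and Apoe, and its summed level of general macrophage markers, 624 CPM, was the highest of that day.

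The effect of bleomycin differed between days by a direct test for several genes. Between days 7 and 14 the difference was 2.58 for Spp1, 1.54 for Gpnmb, 1.23 for Trem2, 1.69 for Apoe, 0.93 for Lpl and 1.13 for Ms4a7 on the log2 scale. Between days 14 and 42 it was -1.55 for Spp1, -0.97 for Trem2, -0.59 for Cd63, -1.34 for Apoe, -0.76 for Ms4a7 and 0.35 for Cd9. These tests compare the BLEO-IPF groups with each other, which share 1 CTRL group.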

How the results depend on the processing

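Of 348 counts of called genes recomputed under an alternative, 318 stayed within 1.5 times. With the macrophage marker term the counts of the 10 genes called higher on days 7 to 42 became 2, 1, 3, 4, 4 and 6, with 1 lower on day 7, and 1 higher from day 7 to 14 and 2 higher and 0 lower from day 14 to 42. The counts of the 37 genes then became 5, 0, 2, 4, 4 and 7 higher on the 6 days, and 6, 1, 4 and 4 lower on days 7, 14, 35 and 42. With the term, 8.87%, 2.18%, 5.06%, 4.78%, 5.12% and 5.76% of all genes were higher, and 5.45%, 0.789%, 3.66% and 4.72% lower on those days. The term turned the sign of Cd9 on day 7 (-0.04) and 14 (-0.06), Cd63 on day 14 (-0.01), Apoe on days 7 (-0.78), 14 (-0.01), 21 (-0.24), 35 (-0.10) and 42 (-0.25), and Lpl on days 7 (-0.19) and 14 (-0.01). The term is made from genes most of which rose with bleomycin, and it takes up part of the group difference. A minimum log2FC of 1 left 6 genes higher on day 42, and 0 higher and 2 lower from day 14 to 42. With only the groups compared, 2 genes were higher from day 14 to 42, and of the 37 genes 6 were lower at day 7 and 1 at day 42. The 37 genes held 5 lower at day 7 with a minimum of 10 counts, 2 on day 28 with DESeq2, and 0 on day 35 without the filter or with cardiac muscle and adipocyte terms, which also turned Cd9 on day 7 (-0.02). Leaving out each mouse gave 0 to 1 genes lower from day 14 to 21, and from day 14 to 42 1 to 2 higher and 4 to 7 lower. Replicate numbers did not pair the mice, since same-numbered mice had a median correlation of 0.006 (63 of 204 pairs above 0.1) and 7 of 75 mice correlated best with their own number. With the replicate block all 60 log2FC of the 10 genes against CTRL kept their direction and call, and 7 rather than 6 genes rose from day 7 to 14. No scaling moved the median of all genes by 0.1.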
